A study of Mus musculus with 8 samples.

Results

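Of the 31053 genes counted in these single-cell libraries, 9 are described here: *Sst*, *Vip*, *Npy*, *Cck*, *Cort*, *Tac2*, *Crh* and *Cartpt*, which encode precursors of secreted neuropeptides, and *Crhbp*, which encodes a protein that binds corticotropin-releasing hormone. They were chosen by symbol, as the peptides of interneurons and of the cortex. Their UMIs (unique molecular identifiers, each standing for 1 captured transcript) were followed over the 23687 cells that the authors annotated in 8 libraries, 4 of the prefrontal cortex (PFC) and 4 of the striatum. In each tissue 2 libraries came from wild-type (WT) mice and 2 from *Setd1a*+/- mice, and each library pooled the tissue of 2 male mice on the C57BL/6N background. The labels give an age of 8 to 10 weeks for all groups, the methods give another age, and the labels call the striatal tissue NAc where the methods name dorsal and ventral striatum. The *Setd1a*+/- mice carried 1 allele with a frameshift deletion of 8 bp in exon 15, made with CRISPR-Cas9 and crossed back to C57BL/6N for at least 5 generations. The WT mice were their littermates, and the labels name no other allele or treatment.

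Neuropeptides are cut from larger precursors in dense-core vesicles and act on G protein-coupled receptors, more slowly and over longer distances than GABA or glutamate. In the cortex they mark classes of GABAergic interneurons. Somatostatin (*Sst*) marks cells that contact dendrites, vasoactive intestinal peptide (*Vip*) marks cells that inhibit other interneurons, and neuropeptide Y (*Npy*) marks neurogliaform cells and a part of the *Sst* cells. In the striatum, *Sst* and *Npy* are known together from one class that also makes nitric oxide with *Nos1*, while CART (*Cartpt*) is a peptide of medium spiny neurons (MSNs), the projection neurons.

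The 9 genes lie on 7 mouse chromosomes in GENCODE vM21 (GRCm38). *Sst* is at chr16:23889573-23890958 (minus strand), *Vip* at chr10:5639218-5647617 (plus), *Npy* at chr6:49822710-49829507 (plus), *Cck* at chr9:121489824-121495694 (minus) and *Cort* at chr4:149125034-149126763 (minus). *Tac2* is at chr10:127724478-127731768 (plus), *Crh* at chr3:19693401-19695396 (minus), *Crhbp* at chr13:95431371-95444924 (minus) and *Cartpt* at chr13:99898489-99901091 (minus). Several of these genes are known targets of the factor CREB, whose recognition sequence, the cAMP response element, was first described in the somatostatin gene. RefSeq promoters of build GRCm38.p6 were found for 8 of the 9 genes, all but *Crh*. The 150 bases before the RefSeq start hold the full element TGACGTCA, which reads the same on both strands, in 2 of the 8, *Sst* and *Cartpt*, against 1.36% of 32851 promoters. The 5 letters TGACG, read on either strand and also part of the full element, are found in 6 of the 8, all but *Npy* and *Tac2*, against 13.3% of promoters. A match is a description and not a site of binding. The first pair of stretches below, 30 bases long, shows the full element in capitals, and the next shows the shorter one in *Cck* and *Crhbp*. The whole windows of *Vip* and *Cort*, the 2 genes whose levels differed most between the tissues, follow, again with the element in capitals. All are written 5′ to 3′ along the gene. The GENCODE starts of *Vip*, *Cort* and *Cck* are those of RefSeq, while those of *Sst*, *Cartpt* and *Crhbp* lie 114, 408 and 93 bases farther upstream.
Sst, chr16:23890874-23890903, minus strand: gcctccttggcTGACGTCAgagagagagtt
Cartpt, chr13:99900777-99900806, minus strand: ccggcgggcatTGACGTCAaacggcagcgg
Cck, chr9:121495723-121495752, minus strand: ctgctggactgCGTCAgcactgggtaaaca
Crhbp, chr13:95444877-95444906, minus strand: agctggaccctCGTCAttgccacgcatttt
Vip, chr10:5639068-5639217, plus strand: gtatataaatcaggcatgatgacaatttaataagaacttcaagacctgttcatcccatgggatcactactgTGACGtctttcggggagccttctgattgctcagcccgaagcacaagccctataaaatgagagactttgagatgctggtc
Cort, chr4:149126764-149126913, minus strand: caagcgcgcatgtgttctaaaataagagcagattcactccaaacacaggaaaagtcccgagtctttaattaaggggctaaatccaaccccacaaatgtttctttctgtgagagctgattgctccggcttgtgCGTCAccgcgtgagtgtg

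The 8 libraries held 15154268 to 26277553 UMIs, of which 5999666 to 13521114 lay in annotated cells. The annotated interneurons numbered 298 in the PFC, with 48 and 100 in the WT libraries and 90 and 60 in the *Setd1a*+/- libraries, and 821 in the striatum, with 246, 189, 138 and 248 in the same order. They had a median of 3799.5 to 7398.5 UMIs per library, and 1 interneuron barcode was shared between 2 libraries. *Setd1a* itself was at 8.45 and 11.2 UMIs per 1000000 (CPM) over all annotated cells of the WT PFC libraries and at 5.59 and 9.33 CPM in the *Setd1a*+/- libraries, and at 13.4 and 15.2 CPM against 9.16 and 12.5 CPM in the striatum. Each mutant library was below the WT library of its replicate, but the WT and mutant libraries overlapped in the PFC, and the difference was not called in striatal interneurons or in excitatory neurons. In PFC interneurons, with 4, 6, 0 and 6 UMIs of *Setd1a*, the gene did not pass the filter on low counts. A frameshift allele need not lower its transcript, so this level is a weak check of the labels.

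The label of the PFC interneurons was borne out by their markers, and that of the striatal interneurons only in part. Of the PFC interneurons, 294 of 298 had a UMI of *Gad1* or *Gad2*, the enzymes of GABA synthesis, and 1 had 2 or more UMIs of the excitatory markers *Slc17a7* and *Neurod6*. Of the striatal group, 635 of 821 had a *Gad* UMI, while 178 (21.7%) had 2 or more UMIs of *Slc17a7* and *Neurod6*, 28 of them together with *Gad*. A further 21 had 2 or more UMIs of the MSN receptors *Drd1* and *Adora2a*, some of these cells carrying both kinds of markers. All 6 interneuron markers were found in both groups, and their summed level was 3691 to 5618 CPM in the PFC libraries and 1235 to 1689 CPM in the striatal ones. The 4 excitatory markers summed to 0 to 39.8 CPM in the PFC group and to 355 to 494 CPM in the striatal group. The 6 MSN markers summed to 19.9 to 49.8 CPM and to 158 to 272 CPM. The levels, shares and tests of the 9 genes in the striatal group were therefore repeated without the 193 cells that carried markers of other neurons. This step was chosen after seeing the data, and the values that changed a call, a direction or a separation of libraries are given beside the results. The lists of other genes were read in all annotated interneurons alone.

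Levels are given below in CPM over the summed cells of a type in a library, in the order WT replicates 1 and 2 and then *Setd1a*+/- replicates 1 and 2. The UMIs count 3′ ends and carry no length term, and levels of different genes are not ranked against each other. As background, the level of free RNA was taken in the same library from barcodes with 1 to 50 UMIs, which hold no cell. Of 162 combinations of a gene and a cell type, 17 were above free RNA in every library of the tissue. Of these, 8 were genes in PFC interneurons, all but *Cck*, and 5 were genes in striatal interneurons (*Sst*, *Npy*, *Cck*, *Crh* and *Crhbp*). The others were *Cck* in PFC excitatory neurons, *Cartpt* in D1 and in D2 MSNs, and *Tac2* in D1 MSNs.

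*Sst* stood at 8090.4, 7463, 8022 and 5600.5 CPM in the PFC interneurons of the 4 libraries, a mean of 7294 ± 1163 CPM (SD, n = 4). In striatal interneurons it was at 2039.7, 5692, 5525 and 3681 CPM. The interneurons of each tissue were apart from every other type, of which the highest were oligodendrocyte progenitors, with mean levels of 21.4 CPM in the PFC and 49.8 CPM in the striatum, both below free RNA in every library. In the PFC 107 of 298 interneurons (35.9%) had a UMI and 95 had 10 or more, and these 95 cells held 99.6 to 99.96% of the interneurons' *Sst* UMIs in each library. In the striatum 171 of 821 cells had a UMI and 81 had 10 or more, with up to 809 UMIs in 1 cell.

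*Vip* was found in fewer cells and differed more between libraries. PFC interneurons held 1966, 1323, 3119.9 and 4478 CPM, and both *Setd1a*+/- libraries were above both WT libraries. In all, 59 of the 298 cells (19.8%) had a UMI and 51 had 10 or more. In the striatum the libraries held 108, 0, 1.23 and 284 CPM, from 12 of 821 cells (1.46%), so that 2 of the 4 libraries were close to or at 0. The WT replicate 2 library, at 0 UMIs of 189 cells, allows up to 3 UMIs of the gene. Leaving out the cells with markers of other neurons gave 160.6, 0, 1.71 and 428 CPM. No other cell type reached a mean of 5 CPM in either tissue.

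*Npy* stood at 15135, 12884, 7853 and 9960 CPM in PFC interneurons, where both *Setd1a*+/- libraries were below both WT libraries, and at 1091, 4215, 3605 and 3958 CPM in striatal interneurons. It was found in 184 of 298 PFC interneurons (61.7%), of which 132 had 10 or more UMIs, and in 160 of 821 striatal ones. Its high cells in other clusters are described below.

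*Cck*, the precursor of cholecystokinin, followed another pattern. In PFC interneurons it stood at 314, 157, 530.3 and 245 CPM, in every library below its own free RNA (373 to 765 CPM), although 118 of 298 cells (39.6%) had a UMI, against 2.9 to 5.05% of the cells of the 6 glial and vascular types of the PFC. With every cell thinned to 1000 UMIs the share was 19.5% in interneurons and 1.45 to 2.53% in those types. In striatal interneurons *Cck* stood at 529, 378, 244 and 360.2 CPM. There, 70.3% of its UMIs came from the 178 cells with excitatory markers, of which 62.9% had a *Cck* UMI, against 7.41% of the 607 other cells with *Gad*. Without the cells with markers of other neurons, the striatal levels were 309, 79.3, 123 and 147 CPM.

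*Cort*, the precursor of cortistatin, a relative of somatostatin, was at 386, 359, 162 and 387 CPM in PFC interneurons and at 10.6, 18.1, 7.39 and 10.4 CPM in striatal ones, or at 5.65, 26.0, 8.56 and 15.7 CPM without the cells with markers of other neurons, from 5 to 22 UMIs a library. It was found in 106 of 298 PFC cells but mostly at 1 or 2 UMIs, with 10 or more in 11 cells. Without the cell with the most UMIs in each library, the mean PFC level was 207 CPM instead of 323 CPM. *Tac2*, the precursor of neurokinin B, was at 82.9, 223, 124 and 579 CPM in PFC interneurons and at 62.9, 0, 13.5 and 18.9 CPM in striatal ones. All 29 UMIs of the first PFC library came from 1 cell.

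*Crh*, the precursor of corticotropin-releasing hormone, was the scarcest by UMIs, with 43 in all PFC interneurons and 30 in all striatal ones. Its level was 28.6, 9.96, 26.6 and 53.0 CPM in the PFC and 9.09, 4.11, 3.69 and 9.43 CPM in the striatum, and no interneuron had more than 5 UMIs. *Crhbp* was at 180, 195, 326 and 103 CPM in PFC interneurons and at 36.4, 84.7, 85.0 and 60.3 CPM in striatal ones. Interneurons held 95.8% of the *Crhbp* UMIs of all annotated PFC cells and 91.3% of those of the striatum. *Cartpt* was at 203, 45.8, 133 and 136 CPM in PFC interneurons and at 304, 92.1, 137 and 107 CPM in striatal ones, the latter all below free RNA (327 to 770.3 CPM). The part of free RNA in these values was not tested.

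**Figure D1:**
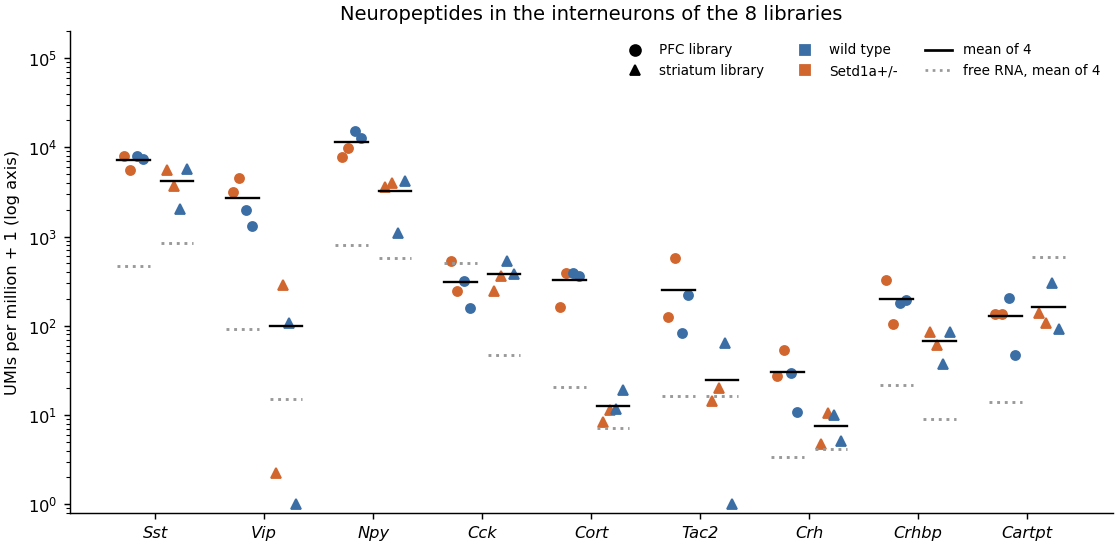
The plot shows the level of each gene in the interneurons of each library, in CPM plus 1 on a log axis, with circles for PFC and triangles for striatum libraries, blue for WT and orange for Setd1a+/-, a black bar at the mean of 4 libraries and a dotted bar at the mean of free RNA. *Vip* and *Cort* fell farthest from the PFC to the striatum, and the PFC bar of *Cck* and the striatal bar of *Cartpt* lie below their dotted bars.

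Outside the interneurons, *Cck* lay mostly in the PFC excitatory neurons. It stood at 1247, 704, 1453 and 728 CPM over these neurons, which held 96.3% of the *Cck* UMIs of all annotated PFC cells. In both genotypes the replicate 1 library was above the replicate 2 library. The authors split these neurons into 7 subtypes, named by layer (SL, superficial; DL, deep) and a marker gene. Mean *Cck* levels were 1612 CPM in DL-Etv1, 1543 in DL-Nnat, 1525 in SL-Cux2, 1414 in SL-Myh7 and 910.4 in DL-Pou3f1, and the libraries of neighbours in this order overlapped. DL-Foxp2, at 68.8 CPM, was below DL-Pou3f1 in every library, and DL-Tshz2 was at 18.6 CPM, overlapping with DL-Foxp2. In SL-Cux2 neurons the 4 libraries held 1887, 1005, 2358 and 849 CPM, so that the gap between replicates was larger than that between genotypes. As shares of cells, 98.2% of DL-Etv1 neurons and 24.1% of DL-Foxp2 neurons had a UMI, or 64.8% and 6.86% with every cell thinned to 1000 UMIs.

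*Npy* had a small population of high cells in DL-Nnat neurons. Its level there was 199.8, 439, 203 and 157 CPM in the 4 libraries, not overlapping with the other 6 subtypes, whose means were 10.9 to 19.6 CPM. Of the 463 DL-Nnat neurons 149 had a UMI and 37 had 10 or more, against 1 of the other excitatory neurons, of which 208 had a UMI. Of the 37 cells 1 had a UMI of *Gad1* or *Gad2* and 34 had one of *Slc17a7*. The level was below free RNA (701 to 987 CPM) in every library, and the cells with 10 or more UMIs were found in all 4 libraries, with 5, 24, 6 and 2 of them. The clusters were made from these same cells, so the difference between subtypes was not tested.

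*Npy* also reached 1007 CPM in the oligodendrocyte progenitors of 1 PFC library, WT replicate 2, against 117, 132 and 209 CPM in the other 3. In that library 13 cells of this cluster had 10 or more *Npy* UMIs, and no cell did so in the others. None of the 13 had a UMI of *Pdgfra* or *Cspg4*, the defining markers of these progenitors, while 242 of all 291 *Npy*-positive cells of the cluster did. Their leading genes over the rest of the cluster in that library were *Apod*, *Npy*, *Selenop*, *Vtn* and *Mgst1*. A further 4 cells with 10 or more UMIs in the PFC astrocytes, all of the same library, were led by *Apod*, *Npy* and *Kctd12*. At 1 or more UMIs, *Npy* was found in 21.8% of the PFC and 14.8% of the striatal progenitors, where its mean level was 109 CPM, above every other striatal type except interneurons, and no striatal progenitor had 10 UMIs. In neither tissue was its level in the progenitors above free RNA in every library.

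**Figure D2:**
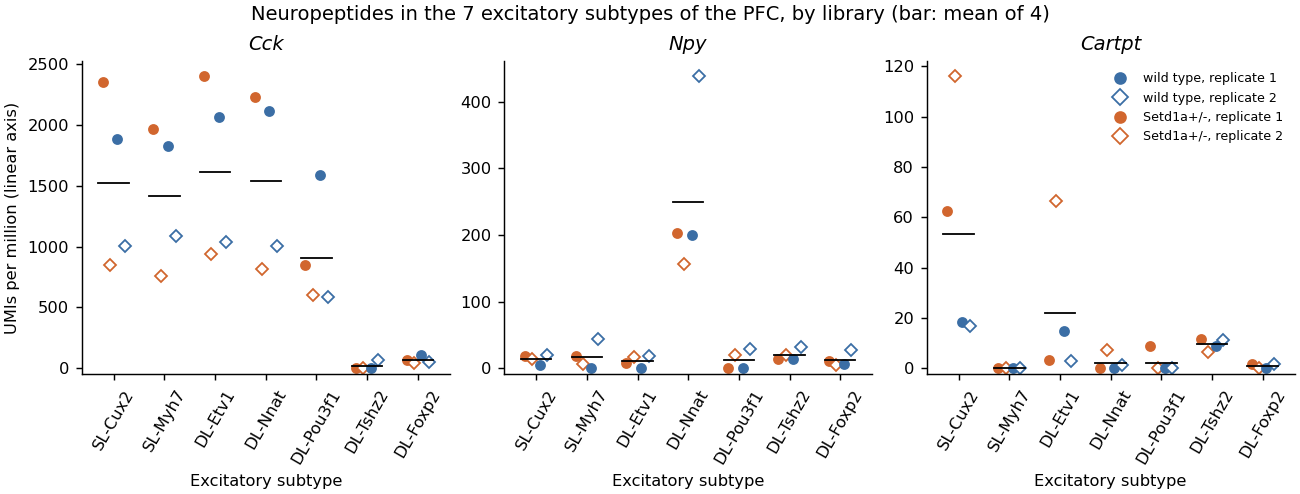
The 3 panels plot the levels of *Cck*, *Npy* and *Cartpt* in CPM (linear axes) in the 7 excitatory subtypes, with 1 point per library (circles for replicate 1, diamonds for replicate 2, blue for WT, orange for Setd1a+/-) and a bar at the mean of 4. *Cck* is high in 5 subtypes with circles above diamonds, *Npy* is high in DL-Nnat, and the *Cartpt* points of the 2 Setd1a+/- libraries lie above those of WT in SL-Cux2.

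In the striatum, *Cartpt* and *Tac2* lay mostly in the MSNs. *Cartpt* stood at 1116, 739, 1060.1 and 941 CPM in D1 MSNs and at 1102, 704, 1266 and 1003 CPM in D2 MSNs, which are named for their dopamine receptors. It was found in 42.9% of 3904 D1 and 41.2% of 2451 D2 cells. The 2 types overlapped and were both above every other type, and they held 54.7% and 38.0% of its striatal UMIs. Among MSNs, *Tac2* lay in the D1 cells, at 61.7, 105, 100.4 and 33.8 CPM against 0, 1.94, 0 and 0 CPM in D2 cells. The D1 cells with *Tac2*, 369 of 3904, differed from the remaining D1 cells in the same direction in every library for *Penk*, *Tac1* and *Drd1*. They did not do so for *Cartpt* and *Pdyn*. *Cartpt* was found in 48.8% of the cells with *Tac2* against 42.3%, higher in 2 of 4 libraries. *Pdyn*, the dynorphin precursor, was found in 45.8% against 51.2%, higher in 1 of 4. *Penk*, the enkephalin precursor known from D2 cells, was found in 52.8% of the cells with *Tac2* against 38.6%, higher in each of the 4 libraries. *Tac1*, the substance P precursor known from D1 cells, was found in 75.3% of the cells with *Tac2* against 88.1%, lower in each library. These cells had a median of 2836 UMIs against 3210, and *Drd1* was found in 30.6% against 36.8%, lower in each library. All of these shares count cells with 1 or more UMIs, without thinning. *Penk* stood at 488 CPM in D1 and 5688 CPM in D2 MSNs, and the part of free RNA in its shares was not tested.

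**Figure D3:**
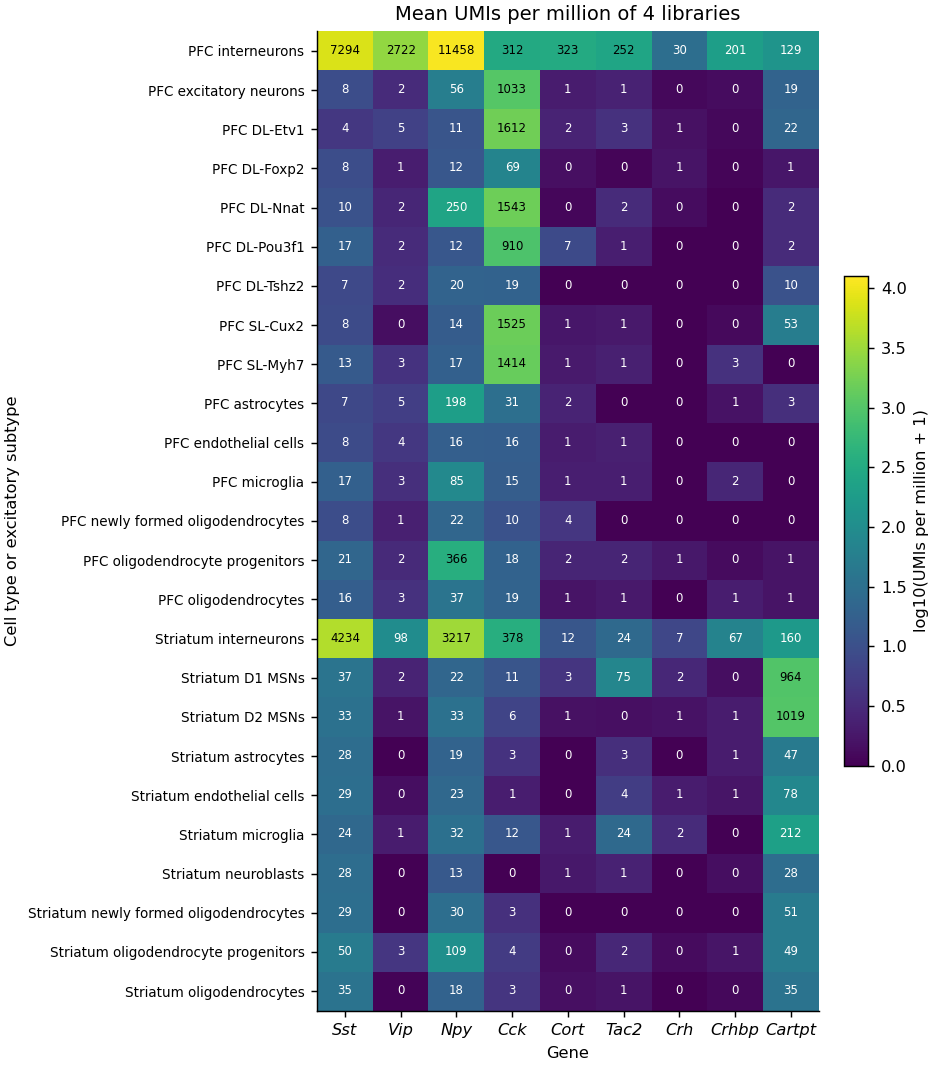
The heat map gives the mean level over 4 libraries of each gene (columns) in each cell type of the 2 tissues and in each PFC excitatory subtype (rows), as a rounded number of CPM, with the colour showing log10(CPM + 1). The brightest cells lie in the 2 interneuron rows, in the *Cck* column of the PFC excitatory neurons and in the *Cartpt* column of the D1 and D2 MSNs.

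Which peptides share a cell was read from interneurons thinned to 2000 UMIs each, which left 277 PFC and 806 striatal cells and dropped 21 and 15 shallower ones. These counts are a description, since cells of a library are not replicates, and each pair was also read within each library. In the PFC, *Sst* and *Vip* hardly met, with 97 *Sst* cells, 48 *Vip* cells and 1 cell with both. *Sst* cells took in most of the *Crhbp* and *Cartpt* cells. Of the 39 cells with *Crhbp* 34 had *Sst*, and of the 37 cells with *Cartpt* 27 did. *Vip* cells took in most of the *Tac2* and *Crh* cells, 15 of 20 and 8 of 11, and none of the 39 *Crhbp* cells. The hormone and its binding protein did not meet at this depth, as 0 of the 11 *Crh* cells had *Crhbp*.

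*Npy* was spread over 2 kinds of PFC cells. Of its 160 cells 54 had *Sst*, near the share among all cells (97 of 277, or 35.0%), and this pair was not among those found together in every library. Of the 106 *Npy* cells without *Sst* 73 had *Lamp5*, a marker of neurogliaform cells. It was found in 47 of the 59 *Cort* cells and 53 of the 78 *Cck* cells, but in 4 of the 48 *Vip* cells. *Sst* was found in 45.8% of the *Cort* cells against 32.1% of the cells without *Cort*. Of 36 pairs, the gene taken first was found in every PFC library for 31, and in every striatal library for 24. A pair with either gene absent from a library could count as neither together nor apart in every library. After thinning this held for pairs with *Tac2* or *Crh* in the PFC, and with *Vip*, *Tac2* or *Crh* in the striatum. In the PFC 7 were found together in every library, in that a gene was more frequent among cells with the other gene than among cells without it (*Sst* with *Cort*, *Crhbp* and *Cartpt*, *Npy* with *Cck* and *Cort*, and *Crhbp* with *Cort* and *Cartpt*), and 9 were apart in every library, by the reverse measure. At 10 or more UMIs a gene these counts were 3 and 4, and without WT replicate 2 they were 8 and 14. With a library left out, here and below, a pair had to hold in the remaining libraries only, which can raise a count but not lower it.

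In the striatum the pairing was *Sst* with *Npy*. Of 127 *Sst* and 118 *Npy* cells 58 had both, and 40 of these 58 also had *Nos1*, against 3 of 54 such cells in the PFC. *Crhbp* was shared with both, in 18 of its 40 cells with *Sst* and 21 of 40 with *Npy*, while *Cck* was apart from *Sst*, with 4 cells in common among 126 and 127, and from *Crhbp*, with none. Before thinning, 112 of the striatal cells with *Cck* were in the group with markers of excitatory neurons. Without the cells with markers of other neurons 33 *Cck* cells were left, 3 of them with *Sst*, and this pair was apart in 3 of the 4 libraries. There, 5 pairs were together and 4 apart in every library. Without the cells with markers of other neurons both counts were 3, and without WT replicate 2 they were 5 and 12. Of the striatal interneurons 412 of 806 (51.1%) had none of the 9 genes, against 9 of 277 (3.25%) in the PFC, and 334 of 613 (54.5%) had none once the cells with markers of other neurons were left out.

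Genes of known interneuron classes set these cells apart as well. In the PFC 71.1% of *Sst* cells had *Calb1*, a calcium-binding protein of many *Sst* cells, against 2.22% of cells without *Sst*. Of the *Vip* cells 64.6% had *Adarb2*, 24 of the 48 had *Calb2* and 20.8% had the serotonin receptor gene *Htr3a*, against 23.6%, 9.17% and 1.31% of the cells without *Vip*. *Lamp5* was found in 47.5% of *Npy* cells and 1.71% of the rest. In the striatum 34.6% of *Sst* cells and 35.6% of *Npy* cells had *Nos1*, against 2.95% of the cells without *Sst*. Over cells, the gene most like *Sst* was *Calb1* in the PFC (Pearson r = 0.78 over 298 cells of 4 libraries) and *Npy* in the striatum (r = 0.75 over 821 cells). Those most like *Vip* in the PFC were *Gpd1*, *Penk* and *Synpr* (r = 0.58, 0.55 and 0.54), and the one most like *Npy* there was *Lamp5* (r = 0.71). *Tac2* was most like *Cxcl14* (r = 0.57) and *Crhbp* most like *Lgals1* (r = 0.59). The striatal *Cck* pattern was most like *C1ql3*, *Rasl10a* and the excitatory marker *Slc17a7* (r = 0.58, 0.54 and 0.54). Over the 18 cell types of both tissues, *Cck* was most like *Syt13*, *Cartpt* most like *Necab2* and *Sst* most like *Crhbp* (r = 0.96, 0.97 and 0.96). Cells share their library and depth, and these values carry no test.

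**Figure D4:**
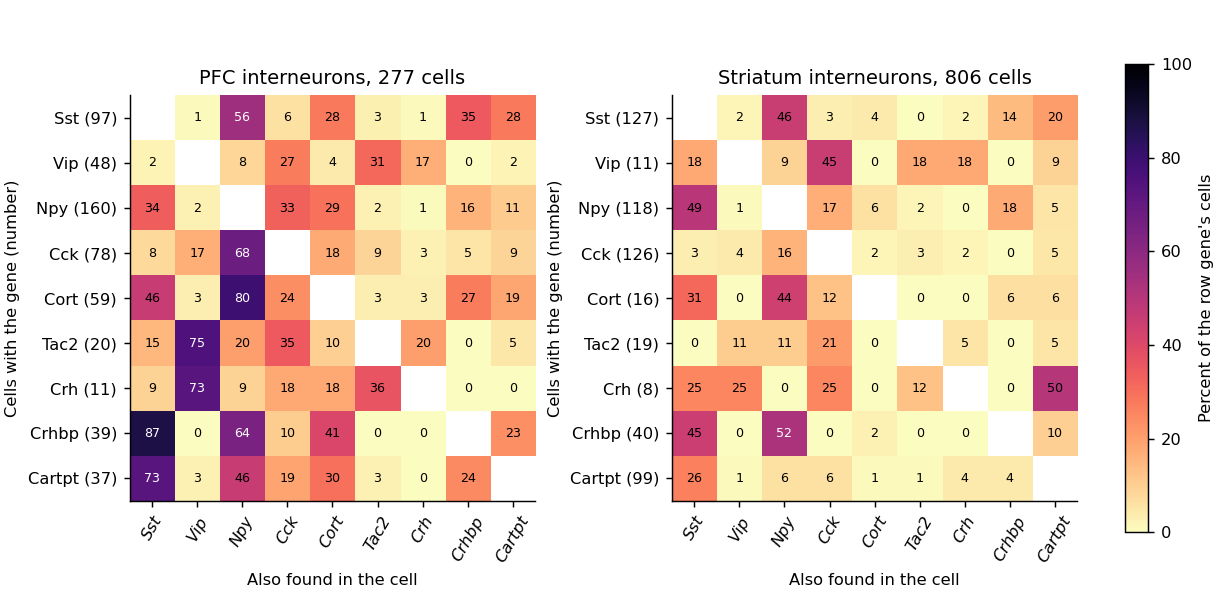
For the gene of each row, with its number of cells in brackets, the maps give the percentage of those cells that also held the gene of the column, in PFC (left) and striatal interneurons (right) thinned to 2000 UMIs. The *Crhbp* and *Cartpt* rows are dark under *Sst* and the *Tac2* and *Crh* rows under *Vip* in the PFC, and *Sst* and *Npy* meet in the striatum with 46% and 49%.

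The comparison of the 2 tissues asked how the same peptides differ between cortical and striatal interneurons. The interneuron UMIs were summed per library and tested with edgeR's quasi-likelihood test over 7877 genes, with genotype in the model, and a gene was called at an FDR (the p adjusted over all genes tested) under 0.05 and a fold change above 1.5. It called 960 genes (12.2%), of which 463 (5.88%) were lower in the striatum and 497 (6.31%) higher. Of the 9 peptide genes 6 were called, all lower in the striatum. *Cort* was lower by a log2 fold change of -4.74 (SE 0.30, FDR 1.39e-07), *Vip* by -4.77 (SE 0.83, FDR 0.00116) and *Tac2* by -3.20 (SE 0.69, FDR 0.00561). The striatal levels of *Cort*, *Vip* and *Tac2* were not above free RNA in every library, and the part of free RNA in them was not tested. *Crh* was at -1.92 (SE 0.46, FDR 0.0110), *Npy* at -1.79 (SE 0.34, FDR 0.00219) and *Crhbp* at -1.59 (SE 0.30, FDR 0.00216). The 4 striatal libraries were below the 4 PFC libraries for each of these 6, as for 18.5% of all genes tested in one direction or the other.

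*Sst* did not pass, at -0.75 (SE 0.26, FDR 0.0733), nor did *Cck* at 0.33 (SE 0.30, FDR 0.539) and *Cartpt* at 0.35 (SE 0.39, FDR 0.635). *Sst* passed in the same test without *Setd1a*+/- replicate 2 of the PFC, at -0.90 (FDR 0.0387), and without WT replicate 2 of the striatum, at -1.03 (FDR 0.0429). Without the cells with markers of other neurons 702 of 7142 genes were called (9.83%), and 5 of the 9 were among them. The libraries of the tissues then overlapped for 3 of the 6 genes above. *Tac2* was at 88.2, 0, 17.1 and 27.0 CPM in the striatal libraries, *Crhbp* at 54.3, 115.9, 111 and 86.8 CPM and *Crh* at 12.4, 4.73, 5.13 and 12.8 CPM. *Cck* then turned to -0.83 (SE 0.38, FDR 0.1995), *Sst* was at -0.30 (SE 0.24, FDR 0.491), *Cartpt* at 0.83 (SE 0.41, FDR 0.231) and *Crh* at -1.51 (SE 0.47, FDR 0.0546), no longer called. The test of DESeq2 did not call *Tac2* (FDR 0.105). The tissues were dissected, clustered and named apart, so tissue and preparation cannot be told apart, and a share of another cell kind in the summed cells cannot be told apart from a level per cell.

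The shares of interneurons with a gene were compared next. After thinning to 2000 UMIs, *Npy* was found in 57.4% ± 2.55 (SD, n = 4 libraries) of PFC and 15.1% ± 5.72 of striatal interneurons, *Sst* in 34.0% ± 4.60 and 17.0% ± 6.73, and *Vip* in 18.1% ± 10.1 and 1.15% ± 1.79. *Cort* was found in 22.1% ± 7.80 and 2.00% ± 0.802, and *Crhbp* in 14.2% ± 3.83 and 5.17% ± 1.49. For each of these 5 genes the two-sided exact permutation test over libraries gave p = 0.0286, the smallest that 4 against 4 allows. The test was run on the 9 genes alone, so that there is no share of all genes to read it against. As the background of such shares, at 1000 UMIs a cell *Sst* was found in 0.704 to 2.47% of the other PFC types and 2.75 to 5.00% of the other striatal types, against 33.9% and 13.5% of the interneurons. For *Cck* the shares were 26.9% ± 6.79 and 15.1% ± 4.34 (exact permutation p = 0.0571, n = 4 against 4). Without the cells with markers of other neurons, *Sst* was at 34.1% ± 4.80 and 19.8% ± 8.31 with overlapping libraries (exact permutation p = 0.0571), and *Cck* at 26.7% ± 6.79 and 5.33% ± 1.59 (exact permutation p = 0.0286). For *Tac2*, *Crh* and *Cartpt* they were 7.49%, 4.66% and 14.9% in the PFC and 2.29%, 0.911% and 12.2% in the striatum, with exact permutation p of 0.229, 0.143 and 0.571. Without thinning, *Sst* was at 34.5% and 22.3% (exact permutation p = 0.0857) and *Cck* at 40.1% and 19.3% (exact permutation p = 0.0286). The *Sst* cells of the striatum with 10 or more UMIs held 30871 to 46882 CPM of *Sst*, against 16209 to 26128 CPM in such cells of the PFC, while they made up 5.28 to 17.4% of the interneurons against 27.1 to 37.0%.

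Other genes of the peptide system moved both ways between the tissues. In a list of 12 other brain peptides 7 were tested, of which *Nts*, *Pthlh* and *Trh* were called higher in the striatum and *Pnoc* lower. *Pthlh*, parathyroid hormone-like hormone, was at 37.6 CPM in the PFC and 120.2 CPM in the striatum, and *Pnoc*, the nociceptin precursor, at 383 and 60.0 CPM. *Nts*, the neurotensin precursor, was at 0.555 and 214 CPM, and at 139 CPM in D1 and 276 CPM in D2 MSNs. Of the 821 cells of the striatal group 21 carried MSN receptors, and their part in the *Nts* level was not tested. All 12 genes of peptide processing and dense-core vesicles were tested, and *Cadps2*, *Cpe* and *Pcsk2* were called higher in the striatum, with log2 fold changes of 2.39, 0.77 and 1.43, and none lower. These 3 were at 13.1, 287 and 56.9 CPM in PFC interneurons and 67.7, 481 and 146 CPM in striatal ones. In PFC excitatory neurons they were at 54.9, 644 and 423 CPM. The lists were not read without the striatal cells with excitatory markers, so the part of those cells in the list values was not tested. Of 15 receptors of these peptides 3 were abundant enough to test, and *Npy1r* and *Sstr1* were called lower (-1.68 and -2.19). Of 19 genes of interneuron classes 17 were tested. *Chodl*, *Nos1* and *Th* were called higher in the striatum (2.74, 1.26 and 3.18) and 9 lower, among them *Reln* (-4.26), *Ndnf* (-4.31) and *Lamp5* (-3.37). The median log2 fold changes of the lists were 0.02, 0.39, -1.68 and -0.93 in this order, against 0.01 over all genes tested.

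**Figure D5:**
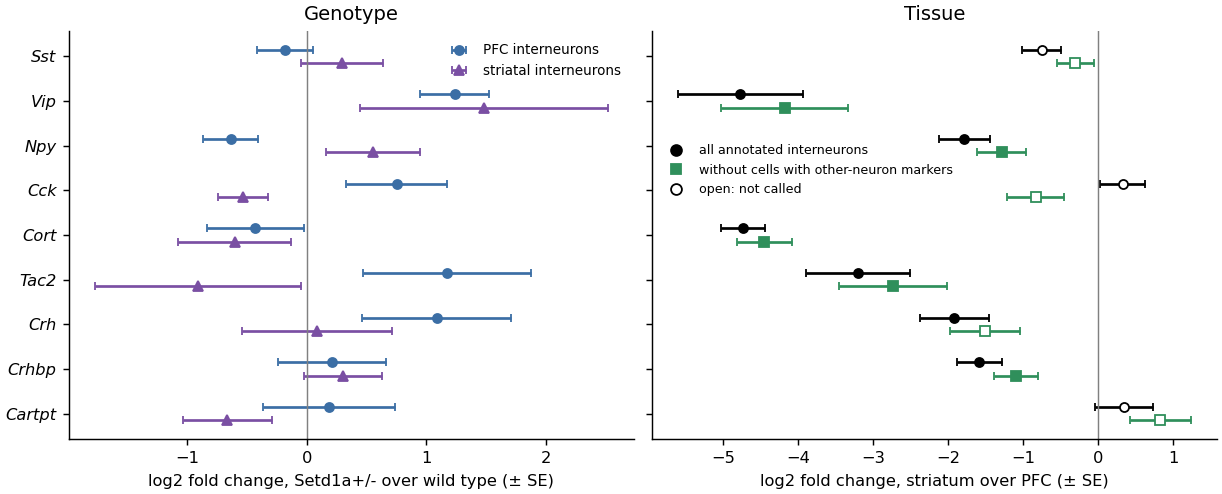
The left panel plots the log2 fold change of Setd1a+/- over WT with its SE in PFC (blue circles) and striatal interneurons (purple triangles), and the right panel that of striatum over PFC with all annotated interneurons (black circles) and without cells that carried markers of other neurons (green squares), open where not called. None of the genotype values was called, *Vip* lies farthest right among the PFC values at 1.24, and *Cck* changes side in the right panel.

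The genotype comparison asked whether loss of 1 *Setd1a* allele changes these peptides. In PFC interneurons 0 of 5915 genes were called (0%), 162 had an unadjusted p under 0.05, and DESeq2 called 0 with 24. With the replicate number as a block, which pairs a WT with a mutant library, 4 genes were called, and without *Setd1a*+/- replicate 1 there were 7. *Vip*, at 1966 and 1323 CPM in the WT libraries and 3119.9 and 4478 CPM in the mutant ones, had a log2 fold change of 1.24 (SE 0.29, unadjusted p = 0.00264, FDR 1.00). Under the block its FDR was 0.0264 at a log2 fold change of 1.23, and in the test without *Setd1a*+/- replicate 1 it was 1.84e-04. That same test also called *Tac2*, at 1.92 (FDR 1.68e-04), and the lone mutant library in it was assumed to vary like the WT ones. The share of interneurons with 10 or more *Vip* UMIs was 12.5% and 10.0% in the WT libraries and 18.9% (17 of 90 cells) and 18 of 60 cells in the *Setd1a*+/- libraries, while the level within such cells was 28299 and 16926 CPM against 23549 and 21102 CPM, overlapping between genotypes. With 2 libraries against 2, an exact permutation test of these shares cannot go below p = 0.333. *Npy* had a log2 fold change of -0.63 (SE 0.23, unadjusted p = 0.0246, FDR 1.00). The libraries of the 2 genotypes did not overlap for *Vip* and *Npy*, 2 of the 9 genes, against 29.6% of all genes tested. The other 7 overlapped and had unadjusted p of 0.110 to 0.745. In simulated counts for this comparison 83.5% of genes changed 4-fold were recovered and 0% of those changed 2-fold. The changed genes were drawn at random from all genes tested and depth was not varied. The simulation therefore cannot decide whether a change of the size of *Npy* could be detected.

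In PFC excitatory neurons 0 of 11665 genes were called (0%), with 158 at an unadjusted p under 0.05, and DESeq2 called 0 with 54. With the replicate block 2 were called, with 555 at an unadjusted p under 0.05. The test without the block left the pairing of the replicates in its spread, so its count of 0 cannot be read as no change. Of the 9 genes *Cck*, *Npy*, *Cartpt* and *Sst* passed the filter on low counts. *Cck* was at 0.18 (SE 0.39, unadjusted p = 0.666). *Cartpt* stood at 6.89 and 5.43 CPM in the WT libraries and at 15.4 and 48.0 CPM in the mutant ones, with a log2 fold change of 2.39 (SE 0.60, unadjusted p = 0.00806, FDR 1.00), and with the replicate block its FDR was 0.0324 at 2.33. Without *Setd1a*+/- replicate 1 it was at 3.02 (FDR 0.0235), where the mutant side is the single library at 48.0 CPM, assumed to vary like the WT ones. *Cartpt* and *Npy*, 2 of the 4 tested, did not overlap between genotypes, against 23.6% of all genes tested. *Npy* stood at 107 CPM in WT replicate 2 and at 35.5 to 41.1 CPM in the other libraries, all below its free RNA. Its edgeR log2 fold change was -1.01 (SE 0.48, unadjusted p = 0.0845).

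The *Cartpt* UMIs of these neurons lay mostly in SL-Cux2, at 18.4 and 16.7 CPM in the WT libraries and 62.3 and 116 CPM in the mutant ones. The log2 fold change was 2.37 (SE 0.41, unadjusted p = 2.73e-04, FDR 1.00), with an FDR of 2.78e-09 under the replicate block, which called 3 of 8403 genes in this subtype. Cells with 10 or more *Cartpt* UMIs numbered 0 and 0 in the WT libraries and 2 and 2 in the mutant ones. Of these 4 cells 1 had a UMI of *Slc17a7*, against 31 of all 44 SL-Cux2 cells with *Cartpt* and 413 of the 582 without it. The shares of SL-Cux2 cells with a UMI overlapped between genotypes, at 10.6% and 4.18% in the WT libraries and 8.57% and 9.77% in *Setd1a*+/- libraries. Of the 94 UMIs of *Setd1a*+/- replicate 2, 49 came from 1 cell, and without the cell with the most UMIs in each library the levels were 13.6 and 13.6 CPM against 46.2 and 56.2 CPM. In DL-Etv1 neurons *Cartpt* was at 14.8 and 2.86 CPM in the WT libraries and 3.31 and 66.6 CPM in the mutant ones, overlapping. It fell in replicate 1 and rose in replicate 2, yet the blocked test gave an FDR of 7.10e-04. That FDR therefore cannot be read as a measure of the spread between the pairs. With 4 libraries the block leaves a single degree of freedom per gene, a limit that also holds for SL-Cux2. The blocked test called 4 of 8714 genes in DL-Etv1.

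In striatal interneurons 0 of 9195 genes were called (0%), with 279 at an unadjusted p under 0.05, and DESeq2 called 0 with 51. With the replicate block 8 were called, none of them a peptide gene, and with 1 library left out 11 to 39. *Cck*, at 529 and 378 CPM in the WT libraries and 244 and 360.2 CPM in the mutant ones, had a log2 fold change of -0.53 (SE 0.21, unadjusted p = 0.0222, FDR 1.00), and -0.48 (SE 0.46, unadjusted p = 0.317) without the cells with markers of other neurons. *Cck* and *Cort* were lower in both *Setd1a*+/- libraries, 2 of the 9 genes, against 29.7% of all genes tested that did not overlap. The libraries of the 2 genotypes overlapped for both once the cells with markers of other neurons were left out, with *Cck* at 309 and 79.3 CPM in the WT libraries and at 123 and 147 CPM in the mutant ones. Single libraries decided calls here. Without WT replicate 2, *Npy* was called at 1.84, *Tac2* at -1.88 and *Cartpt* at -1.28, and *Vip* was called without *Setd1a*+/- replicate 1, at 2.41. In each of these tests the lone library of a genotype was assumed to vary like those of the other genotype. Without WT replicate 1 both *Vip* and *Tac2* were called, against a lone WT library with 0 UMIs of either gene, which gives no size. The test of whether the genotype effect differed between the tissues called 0 of 8374 genes (0%), with 289 at an unadjusted p under 0.05, and DESeq2 called 0 with 82. *Cck* had the lowest unadjusted p of the 9 there, 0.0215, at an interaction of -1.32 (SE 0.51, FDR 1.00).

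Over all cell types and excitatory subtypes tested between genotypes, 4 of 169407 tests were called (0.00236%), all in D2 MSNs (0.0397% there) and none of them a peptide gene. The sums over all cells of a tissue are not in this count, and the subtypes are counted beside the excitatory neurons that hold them. None of the tests in this count paired the replicates. DL-Pou3f1 had fewer than 10 cells in a library and was not tested. With the replicate block, 4 of 4318 genes were called in PFC astrocytes. *Npy* was among them, lower in *Setd1a*+/- libraries at -4.12 (FDR 3.11e-05), where WT replicate 2 held 722 CPM and the other libraries 17.1 to 32.5 CPM. In striatal endothelial cells the block called 25 of 10358 genes, among them *Npy* at 1.21 (FDR 0.0453). Without the block *Npy* was at 0.88 there (SE 0.66, unadjusted p = 0.212). *Cartpt* there passed the FDR (0.0326) but at 0.79 not the 2-fold limit set for the striatum, with 47.1 and 58.5 CPM in the WT libraries and 50.7 and 155 CPM in the mutant ones, which overlapped. In D1 and D2 MSNs *Cartpt* was at 0.15 (SE 0.20) and 0.37 (SE 0.22) and *Tac2* in D1 MSNs at -0.32 (SE 0.42), with unadjusted p of 0.461, 0.125 and 0.465. No gene of the 4 lists was called between genotypes in interneurons of either tissue, in excitatory neurons or in the interaction, with 1 to 18 genes of a list tested.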

How the data were processed

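Single cells of 8 libraries were captured on the 10x platform. The authors aligned and counted the reads with Cell Ranger 3.0.2 on mm10, kept cells in which 800 or more genes were detected and mitochondrial UMIs did not exceed 10%, and clustered and named them with Seurat 3.2.0, and the methods state no removal of doublets. The authors deposited UMI counts per gene and barcode (raw matrices, not normalized) with a table of cell types. Another expression table, whose gene column holds row numbers, was not used. UMIs of annotated cells were summed per library and cell type and tested with edgeR 4.0.16 (quasi-likelihood, TMM, genes filtered by filterByExpr at a minimum count of 10, Benjamini-Hochberg over all genes tested) in R 4.3.3, with DESeq2 1.42.0 as an alternative. A call needed an FDR under 0.05 and a fold change above 1.5 (PFC and tissues) or 2 (striatum). The interaction needed the FDR alone. A group was tested where every library held 10 or more of its cells.

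Shares of cells with a UMI were read after thinning each interneuron to 2000 UMIs (1000 across cell types, seed 5) and compared over libraries with exact permutation tests, in Python 3.11.15 with numpy 2.4.6, scipy 1.17.1 and pandas 2.3.3. Thinning left out 21 PFC and 15 striatal interneurons. Likeness between genes was Pearson's r of log2(CPM + 10) over cell types and of log values per 10000 UMIs over cells. No p adjusted over the 9 genes alone is given. The alternatives were size factors of DESeq2, library sums, no filter, the replicate block, each library left out, other thinning depths, other UMI minimums and other barcodes for free RNA. Each replicate number joins 1 WT and 1 mutant library by the study's methods, and deviations of same-numbered libraries from their group means correlated at r = 0.50 in PFC interneurons, 0.68 in excitatory neurons and 0.18 in striatal interneurons. The study's own tests used no such block. The libraries pool 2 mice each, and p-values measure the spread between these pools. The steps were tested on simulated counts with known changes in randomly drawn genes. A gene counted as recovered by the FDR alone, without the fold limit of a call. The tissue comparison recovered 98% of genes changed 4-fold and 54% changed 2-fold (7877 genes, with 2 and 11 false calls). The striatal genotype comparison recovered 96% and 43.5% (9195 genes, 17 and 9 false calls), and that of PFC interneurons 83.5% and 0% (5915 genes, 18 and 0 false calls). The 9 genes and the gene lists were chosen with earlier results of these data known. The genes named by rule are these 9, the members of the lists that were called, the genes most like each of the 9, and *Setd1a*. Marker genes used to check cells, the leading genes of *Npy*-rich cells and some other list members are named too, the last of these and the leading genes after their values were seen.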

Additional observations from a re-analysis of the deposited data

Results flagged for a closer look

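A library was looked at again where its gap to the nearest of the others exceeded Dixon's 95% critical value for 4 samples, with the 4 libraries of a tissue pooled over genotype. Of the 34 groups of a peptide gene and a cell type with a mean level of 50 CPM or more, 8 had such a library. Chance gives about 1 in 20 for a single group, but these groups share libraries and the subtypes lie within the excitatory neurons. The count therefore cannot be set against that rate. Of the 8 groups, 5 were *Npy* in the WT replicate 2 library of the PFC. Its *Npy* level was 722 CPM in astrocytes against 17.1 to 32.5 CPM in the other libraries, 107 CPM in excitatory neurons against 35.5 to 41.1 CPM, and 292 CPM in microglia against 0 to 39.0 CPM. It was 1007 CPM in oligodendrocyte progenitors against 117 to 209 CPM and 439 CPM in DL-Nnat neurons against 157 to 203 CPM. DL-Nnat neurons held 630 *Npy* UMIs of this library and the other excitatory neurons 140, so the excitatory and DL-Nnat levels rest largely on the same UMIs. In interneurons the same library held 12884 CPM, within the 7853 to 15135 CPM of the others, and its free *Npy* RNA stood at 767 CPM, between the 701 and 987 CPM found among the other 3.

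*Cort* stood apart in the PFC interneurons of *Setd1a*+/- replicate 1, at 162 CPM against 359 to 387 CPM. *Cartpt* stood apart in the striatal endothelial cells of *Setd1a*+/- replicate 2, at 155 CPM against 47.1 to 58.5 CPM, and in the newly formed oligodendrocytes of WT replicate 1 of the striatum, at 170.5 CPM against 0 to 21.2 CPM.

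The genotype differences of *Cck* in interneurons had opposite signs in the tissues. Taken by replicate number, *Setd1a*+/- over WT was 0.74 and 0.61 on the log2 scale in the PFC and -1.09 and -0.07 in the striatum. The edgeR interaction was -1.32 (unadjusted p = 0.0215), and it did not pass the adjustment over all genes (FDR 1.00). The striatal cells with excitatory markers held 70.3% of the *Cck* UMIs of their group. Without the cells with markers of other neurons the interaction was -1.27 (unadjusted p = 0.103), and the striatal pairs went from 309 to 123 CPM and from 79.3 to 147 CPM, so that the opposite signs of the tissues did not hold in both pairs.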

How the results depend on the processing

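The genotype comparison of PFC interneurons rests on 48 to 100 cells a library. The 6 peptide genes called lower in the striatum kept their sign in every alternative, and the counts above free RNA stayed between 15 and 19. Over the values of single genes 647 held their direction and their side of the threshold, 22 gained and 22 lost a call, 40 changed sign and 3 moved by more than the spread of the libraries. Without a filter on low counts the genotype tests called 6 genes in PFC interneurons, 13 in excitatory neurons and 22 in striatal interneurons, the interaction 7 and the tissue comparison 1552. Among these calls was 1 of the 9 peptide genes in each genotype test and in the interaction, and 7 of them in the tissue comparison. With the replicate block the genotype tests called 4, 2 and 8 genes in the same order, and it changed no other call of a peptide gene in these 3 tests than *Vip* and *Cartpt*. With 1 library left out they called 0 to 7, 0 to 1 and 11 to 39 genes (7 without *Setd1a*+/- replicate 1, 39 without *Setd1a*+/- replicate 1 of the striatum), and 2 to 6 of the 9 share differences passed an unadjusted 0.05, a count with no value over all genes beside it, and 2 whichever striatal library was left out. The cause was not tested.

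The pairs together in every PFC library were 4 at 2 or more UMIs a gene and 3 at 10 or more, and those apart were 4 at 10 or more and 9 to 14 with 1 library left out. With 1 library left out a pair had to hold in the remaining libraries only, so these counts could not fall below those of the full set. In the striatum 3 pairs were together at a depth of 1000 UMIs, at 2 or more UMIs, at 10 or more UMIs and without the cells with markers of other neurons, and those apart were 7 at 1000 UMIs and 4 to 12 with 1 library left out. The minimum of 10 UMIs and the exclusions by markers of other neurons or by *Gad* were chosen after seeing the data.

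The *Cck* tissue difference turned to -0.83 without the cells with markers of other neurons and to -0.89 in cells with *Gad1* or *Gad2* alone. The *Cort* interaction was 0.11 without the first, the *Vip* interaction -0.068 with the replicate block, the *Cck* share difference 3.98 percentage points at 10 or more UMIs and that of *Cartpt* 1.40 at 1000 UMIs. With 1 library left out, signs changed as follows, none of them in a called value of the full set. In PFC interneurons the log2 fold changes spanned -1.20 to 0.11 for *Cort*, -0.35 to 2.14 for *Tac2*, -0.82 to 0.78 for *Crhbp*, -0.54 to 1.52 for *Cartpt* and -0.42 to 0.040 for *Sst*. In excitatory neurons they spanned -0.36 to 0.57 for *Cck* and -1.04 to 0.65 for *Sst*. In striatal interneurons they spanned -0.80 to 0.75 for *Crh*, -0.12 to 1.84 for *Npy*, -5.31 to 10.25 for *Vip*, -1.88 to 7.10 for *Tac2*, -0.20 to 1.03 for *Crhbp*, -1.28 to 0.43 for *Cartpt* and -0.27 to 1.22 for *Sst*. The upper ends for *Vip* and *Tac2*, here and in the interaction, were fitted against a lone WT library with 0 UMIs of the gene and give no size, and the lower ends for *Vip* rest on a lone mutant library with 1 UMI. The interaction spanned -0.72 to 0.60 for *Cort*, -6.49 to 8.38 for *Vip*, -3.05 to 5.33 for *Tac2*, -0.49 to 1.12 for *Crhbp*, -2.20 to 0.22 for *Cartpt* and -0.10 to 1.39 for *Sst*. *Cartpt* spanned -0.20 to 0.63 between the tissues and -5.44 to 0.19 percentage points as a share.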

Other observations

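Over all annotated PFC cells, *Vip* had a genotype log2 fold change of 1.57 (unadjusted p = 0.00192) and *Cartpt* of 1.70 (unadjusted p = 0.0173), neither called after adjustment over all genes. Interneurons were 48 of 2623 and 100 of 2680 cells in the WT libraries and 90 of 2186 and 60 of 1508 in the mutant ones. The part of these shares in the *Vip* value was not tested. Over the 18 cell types of both tissues, the genes most like *Vip* and *Crhbp* were both *Pnoc* (r = 0.99 and 0.99), that most like *Npy* was *Kit* (r = 0.92) and that most like *Tac2* was *Rab3b* (r = 0.90), given as a description of 18 means that share their libraries.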
